A study of Mus musculus with 12 samples.

Results

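The Fc gamma receptor genes Fcgr1, Fcgr2b, Fcgr3 and Fcgr4 and the gene of their signalling adaptor, Fcer1g, were followed in dendritic cells (DCs) of the mouse spleen. The genes were taken as a list of symbols, and every probe set annotated to only 1 of these symbols was used, which gave 10 of the 45101 probe sets on the array: 2 for Fcgr1, 5 for Fcgr2b and 1 each for Fcgr3, Fcgr4 and Fcer1g. Of these 10, 9 passed a filter on low values (above the 40th percentile of the array on at least 3 arrays), as did 34205 of all probe sets. Where a gene had several, the brightest by mean log2 value was used, and all 5 genes were among the 15019 genes tested.

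The DCs came from 4 groups of mice: alymphoplasia (aly) mice injected in the peritoneum with LPS (25 micrograms) plus an agonistic antibody against CD40 (100 micrograms), wild type (WT) mice given the same treatment, untreated aly mice and untreated WT mice. Treated mice were taken 6 hours after the injection. The aly mutation lies in Map3k14, which encodes the kinase NIK of the non-canonical NF-kappaB pathway, and it is present in every cell of these mice, which lack lymph nodes and have a disturbed spleen architecture. The mice called WT were heterozygous littermates, so they too carried 1 aly allele. In all groups the cells were selected from the spleen with beads against CD11c, sorted by flow cytometry and pooled from 3 mice, and each group had 3 such arrays, so that p-values measure the spread between pools and not between single mice. Strain, age and sex are not given in the labels.

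Fc gamma receptors bind the constant part of IgG antibodies. Fcgr1 encodes the high-affinity receptor, and Fcgr3 and Fcgr4 encode low- to medium-affinity receptors; in mice all 3 are activating and signal through the ITAM motif of the adaptor encoded by Fcer1g, which they also need to reach the cell surface. Fcgr2b encodes the inhibitory receptor, whose ITIM motif recruits the phosphatase encoded by Inpp5d. In DCs these receptors take up antigen bound by antibody for presentation to T cells, and the inhibitory receptor restrains the maturation that immune complexes can set off. Splenic macrophages carry several of these receptors as well.

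Levels below are the deposited intensities on a linear scale. Differences are on the scale of log2(intensity + 16), given with their standard errors (SE) from a limma fit of all 12 arrays, and p-values were adjusted over all 15019 genes (Benjamini-Hochberg); a gene was called where its adjusted p was under 0.05. On this scale the median difference of all genes was -0.12 between treated and untreated WT DCs, -0.08 between treated and untreated aly DCs, 0.10 for aly minus WT without the treatment and 0.19 for aly minus WT with it, so differences close to these values are no departure from the bulk of genes. The array of treated aly replicate 1 stood apart: its Actb 3′ to 5′ ratio was 55.8, against 1.39 to 5.92 on the other 11 arrays, and its median intensity was 53.4, against 21.5 to 39.1 elsewhere. Its Gapdh 3′ to 5′ ratio was 45.7. In untreated DCs the Gapdh ratio did not overlap between the genotypes, while the Actb ratio did. The Gapdh ratio was 14.1, 10.5 and 7.10 in untreated aly, against 5.59, 5.10 and 4.58 in untreated WT DCs. It was 20.7 and 8.46 on treated aly replicates 2 and 3, against 8.73, 4.84 and 5.43 in treated WT DCs. The part of RNA quality in the Fc receptor values was not tested. Poly-A spike-in intensities were low on replicate 1 of every group (3.25 to 23.7) and higher on replicates 2 and 3 (54.9 to 533), so differences are also given within replicate 1 and within replicates 2 and 3, and with a term for this split (the replicate 1 term) where it changes a call. A value within replicate 1 rests on a single array per group, and a value within replicates 2 and 3 is a mean over both.

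The sorted cells carried DC transcripts. The 9 DC markers summed to 41265 to 96272 in treated aly, 30769 to 41150 in treated WT, 53657 to 57011 in untreated aly and 48234 to 55441 in untreated WT DCs, with Itgax (CD11c) at 1340 ± 1078 in treated aly, 1089 ± 929 in treated WT, 2110 ± 352 in untreated aly and 2780 ± 931 in untreated WT DCs (SD, n = 3 each). Of the 9 DC markers, 1 fell with treatment in WT DCs (Bcl11a), against 9.71% of all genes called. In treated aly against treated WT DCs 1 was lower (Dpp4), against 5.37%. In untreated aly against untreated WT DCs 0 were called, against 0.553%. Kmo (1336 ± 447 against 3432 ± 658), Dpp4 and Bcl11a lay lower there with no overlap of arrays. The means of H2-Aa, H2-Ab1 and Cd74, which were the brightest of the 9 and weigh most in the sum, were higher. Of 9 markers of the cDC1 subset, 6 fell and 1 rose with treatment in WT DCs, the comparison in which Fcgr4 was called, against 9.71% of all genes called. Their median was -2.91 (log2), and Cd8a had 338 ± 119 in treated WT and 2645 ± 827 in untreated WT DCs (adjusted p = 0.0015). Of 9 markers of the cDC2 subset 1 rose (Irf4) and 1 fell (Cd209a) there. In treated against untreated aly DCs 0 of the 9 cDC1 markers were called in limma, against 0.486% of all genes. There 6 were under an unadjusted 0.05, against 1935 of all 15019 genes, and the median of the 9 was -1.49. In untreated aly against untreated WT DCs 0 of the 9 cDC2 markers were called, against 0.553% of all genes. In limma 4 were under an unadjusted 0.05, against 1570 of all 15019 genes, with Sirpa higher (2782 ± 776 against 901 ± 72.9) and Esam, Irf4 and Cd209a lower. Of the cDC1 markers 0 were under 0.05 there. In treated aly against treated WT DCs 1 cDC2 marker was higher (Cd300a) and 2 were lower (Irf4 and Esam), against 5.37% of all genes called. Of the cDC1 markers 1 was higher (Cadm1). The part of these subset shifts in the Fc receptor values was not tested.

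Transcripts that mark macrophages of the spleen differed with genotype. The 16 markers, called red pulp macrophage markers here, include Marco and Siglec1, which are not particular to the red pulp. Marco alone averaged 14181 ± 14765 in treated aly and 2258 ± 3020 in treated WT DCs (SD, n = 3 each). The summed intensity of the 16 markers was 93705, 55763 and 40186 on the 3 treated aly arrays, against 22820, 5004 and 3138 on the treated WT arrays. It was 60050, 48726 and 79067 on the untreated aly arrays, against 19428, 4021 and 2686 on the untreated WT arrays. Every aly array thus lay above every WT array, and in WT replicate 1 lay above the other two under both conditions. Of the 16 markers, 8 were higher in untreated aly than in untreated WT DCs and 7 in treated aly than in treated WT DCs, with 0 lower in either. Of all 15019 genes, 75 and 411 were called higher in these comparisons. None was at 0; the lowest group means were 2.20 for Siglec1 in untreated WT and 4.23 for Cd163 in treated WT DCs.

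Without the treatment, all aly arrays lay above all WT arrays for the 3 activating receptor genes, and Fcgr1 passed the test. With the treatment, Fcgr4 rose in WT DCs. Fcgr2b passed no test. In untreated aly against untreated WT DCs 1 of the 5 genes was called (Fcgr1), against 0.553% of all genes (0.499% as higher), and 3 had groups without overlap, against 22.7% of all genes. In treated against untreated WT DCs 1 was called (Fcgr4), against 9.71% of all genes (4.95% as higher), and 2 had no overlap (Fcgr4 and Fcer1g), against 36.4%. In treated against untreated aly DCs 0 were called in limma, against 0.486% of all genes, and 1 had no overlap (Fcgr3), against 14.6%. In treated aly against treated WT DCs 0 were called, against 5.37% of all genes, and 0 had no overlap, against 24.2%. Without adjustment, 0 of the 5 were under 0.05 in treated against untreated aly DCs, against 1935 of all 15019 genes. In treated aly against treated WT DCs 2 were (Fcgr1 and Fcgr4), against 3437 of all genes. In untreated aly against untreated WT DCs 4 were, against 1570 of all genes. In treated against untreated WT DCs 3 were, against 3465 of all genes. The plot of intensities by group shows each array of each gene.

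**Figure D1:**
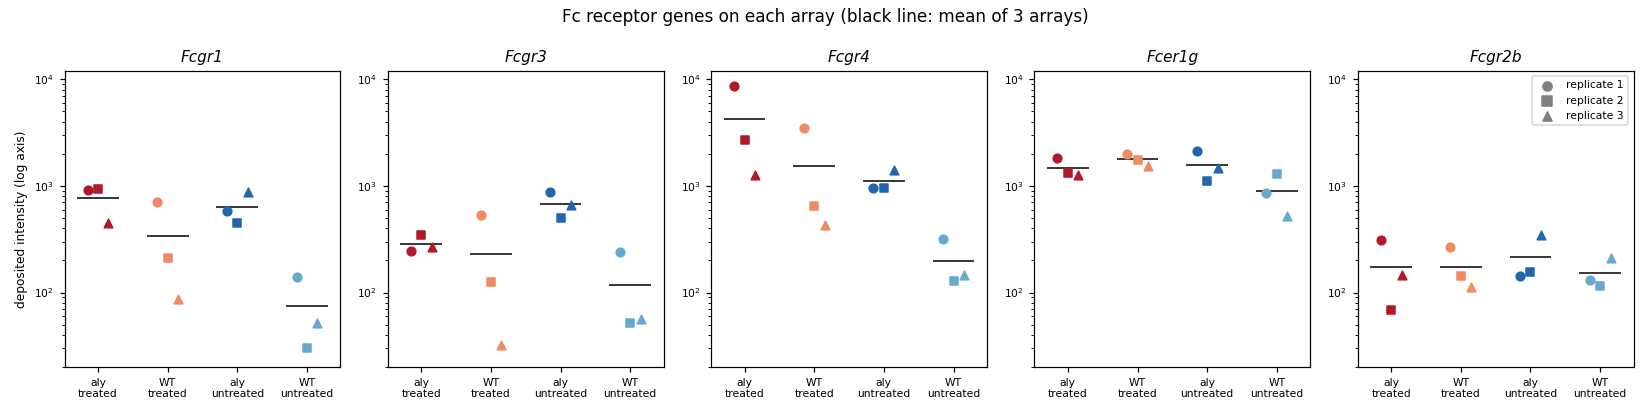
Deposited intensity (log axis) of Fcgr1, Fcgr2b, Fcgr3, Fcgr4 and Fcer1g on the 12 arrays, with 1 point per array, a marker shape per replicate number and a black line at the mean of 3 arrays. Fcgr1, Fcgr3 and Fcgr4 lie higher in untreated aly than in untreated WT DCs with no overlap of arrays, and replicate 1 is the highest of the WT arrays for these 3 genes.

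The promoters of 4 of the genes are shown because 3 of these genes lay higher on all untreated aly than on all untreated WT arrays, while the groups overlapped for Fcgr2b. Each run is the 250 bases before the annotated start (RefSeq, GRCm38.p6), read 5′ to 3′ along the gene's own strand, with matches in capitals to a gamma-activated site (TTCNNNGAA), an interferon-stimulated response element core (GAAA, 2 bases of any kind, GAAA), the core of a PU.1 site (GAGGAA, which reads TTCCTC on the other strand) or an NF-kB site (GGGA, 2 bases of any kind, TTCC), searched on both strands. Fcgr1 lies at chr3:96293970-96294219 (minus strand), Fcgr4 at chr1:171018676-171018925 (plus strand), Fcgr3 at chr1:171059395-171059644 (minus strand, the first of its pair of annotated starts) and Fcgr2b at chr1:170976072-170976321 (minus strand).
Fcgr1: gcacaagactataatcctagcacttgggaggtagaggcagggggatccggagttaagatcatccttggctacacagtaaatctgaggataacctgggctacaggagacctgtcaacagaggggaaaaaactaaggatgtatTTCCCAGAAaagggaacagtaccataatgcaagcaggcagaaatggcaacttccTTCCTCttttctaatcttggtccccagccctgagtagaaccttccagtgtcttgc
Fcgr4: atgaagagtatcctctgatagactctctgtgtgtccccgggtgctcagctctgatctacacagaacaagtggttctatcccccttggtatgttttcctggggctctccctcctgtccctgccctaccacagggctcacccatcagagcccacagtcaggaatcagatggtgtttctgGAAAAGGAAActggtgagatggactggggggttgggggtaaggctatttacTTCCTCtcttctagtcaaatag
Fcgr3: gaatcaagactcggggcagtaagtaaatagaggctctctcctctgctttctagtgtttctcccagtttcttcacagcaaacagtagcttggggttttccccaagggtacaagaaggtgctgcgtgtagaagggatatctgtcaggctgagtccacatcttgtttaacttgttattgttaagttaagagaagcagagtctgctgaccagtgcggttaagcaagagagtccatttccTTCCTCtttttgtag
Fcgr2b: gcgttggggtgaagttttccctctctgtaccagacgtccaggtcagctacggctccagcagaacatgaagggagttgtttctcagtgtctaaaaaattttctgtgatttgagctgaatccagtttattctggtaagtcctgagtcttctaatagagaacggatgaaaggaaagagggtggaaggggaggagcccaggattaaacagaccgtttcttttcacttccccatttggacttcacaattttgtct
The Fcgr1 run holds a gamma-activated site match 109 bases before the start and a PU.1 core match 55 bases before it. The Fcgr4 run holds an interferon-stimulated response element match 73 bases and a PU.1 core match 22 bases before the start, and the Fcgr3 run a PU.1 core match 15 bases before it. Neither Fcgr2b nor Fcer1g (not printed) had a match, and none of the promoters had the NF-kB letters. Among 32851 promoters of the same length, 7.02% held the gamma-activated site letters, 2.98% the interferon element letters, 23.3% the PU.1 letters and 1.21% the NF-kB letters. A match is a description of letters and no evidence that a factor binds there.

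Fcgr1, the high-affinity receptor gene, had intensities of 583.9, 450.4 and 883.7 on the untreated aly arrays, against 141.1, 30.5 and 52.3 on the untreated WT arrays. The groups did not overlap. The difference was 2.99 ± 0.61 (log2, SE; 7.96-fold; 95% interval 1.70 to 4.29) with an adjusted p of 0.0423 in limma. It was 1.93 within replicate 1 and 3.52 within replicates 2 and 3. The adjusted p was 0.0683 to 0.266 when any of 6 arrays was left out (any untreated aly array, untreated WT replicate 2 or 3, treated WT replicate 2), with the difference between 2.61 and 3.21, and 0.0121 without treated aly replicate 1. It was also over 0.05 with an offset of 1, without the filter and with median centring of the arrays (up to 0.165).

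After treatment Fcgr1 had intensities of 920, 927.3 and 449.9 in aly DCs, against 712.1, 209.6 and 87.3 in WT DCs. The ranges overlapped because treated WT replicate 1 lay above treated aly replicate 3. The difference between genotypes was 1.53 ± 0.61 (adjusted p = 0.147, limma), 0.36 within replicate 1 and 2.12 within replicates 2 and 3. Without treated WT replicate 1 it was 2.28, with an adjusted p of 0.0382. The treatment itself gave a difference of 1.70 ± 0.61 in WT DCs (adjusted p = 0.0949; 0.0400 with the replicate 1 term), where the groups overlapped, and of 0.24 ± 0.61 in aly DCs (adjusted p = 0.893, 95% interval -1.06 to 1.53). Leaving out treated WT replicate 3 gave 2.35 in WT DCs, with an adjusted p of 0.0421. Within replicate 1 and within replicates 2 and 3 the difference was 2.21 and 1.44 in WT DCs, and 0.64 and 0.033 in aly DCs. The 0.033 is the mean of 1.02 in replicate 2 and -0.95 in replicate 3.

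The second Fcgr1 probe set averaged 109 ± 48.2 in treated aly, 60.7 ± 30.4 in treated WT, 94.6 ± 28.4 in untreated aly and 37.5 ± 21.8 in untreated WT DCs (SD, n = 3 each). Its untreated aly arrays also lay above all its untreated WT arrays, but the difference of 1.09 ± 0.43 was smaller and was not called (adjusted p = 0.407 over all probe sets). Over the 12 arrays the log2 values of both Fcgr1 probe sets correlated at r = 0.785, a description of arrays that share their groups.

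Fcgr4, the gene of a receptor that binds IgG2a and IgG2b in mice, rose with the treatment in WT DCs. Its intensities were 3502.2, 647.9 and 426.8 in treated WT DCs, against 320.7, 127.3 and 146.5 in untreated WT DCs. The groups did not overlap, and treated WT replicate 1 stood far above the other two treated WT arrays. The difference was 2.35 ± 0.71 (5.09-fold; 95% interval 0.84 to 3.86; adjusted p = 0.0483 in limma). It was 3.39 within replicate 1 and 1.83 within replicates 2 and 3. Without treated WT replicate 1 the difference was 1.45 (adjusted p = 0.250), and the adjusted p was over 0.05 when any of 9 of the 12 arrays was left out, as it was with an offset of 1, without the filter, with median centring and with all probe sets as rows (up to 0.109).

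In aly DCs Fcgr4 had intensities of 8700.6, 2669.6 and 1255.6 after treatment, against 953.9, 956.4 and 1398.3 without it. The highest value of any group was on the array that stood apart, and treated replicate 3 lay below the highest untreated array. The difference was 1.49 ± 0.71 (adjusted p = 0.388), and 0.75 without treated aly replicate 1. It was 3.17 within replicate 1 and 0.66 within replicates 2 and 3, the mean of 1.47 in replicate 2 and -0.15 in replicate 3.

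Between the genotypes, untreated aly DCs lay above untreated WT DCs for Fcgr4 with no overlap of arrays, with means of 1103 ± 256 and 198 ± 107 (SD, n = 3 each). The difference of 2.47 ± 0.71 was not called over all arrays (adjusted p = 0.166; 0.0294 with the replicate 1 term). It was 1.53 within replicate 1 and 2.94 within replicates 2 and 3, where the adjusted p was 0.0023. After treatment the means were 4209 ± 3954 in aly and 1526 ± 1715 in WT DCs, with a difference of 1.62 ± 0.71 (adjusted p = 0.188) that was 1.31 within replicate 1 and 1.77 within replicates 2 and 3, 0.87 without treated aly replicate 1 and 2.52 (adjusted p = 0.0466) without treated WT replicate 1.

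Fcgr3, the low-affinity activating receptor gene, had intensities of 876.2, 504.8 and 663.7 in untreated aly DCs, against 242.3, 52.3 and 56.2 in untreated WT DCs. The groups did not overlap. The difference was 2.65 ± 0.68 (95% interval 1.20 to 4.10) with an adjusted p of 0.110, and of 0.0260 with the replicate 1 term. It was 1.79 within replicate 1, and 3.08 with an adjusted p of 0.0027 within replicates 2 and 3. The adjusted p was 0.0426 without treated aly replicate 1, 0.0284 without treated WT replicate 1 and 0.0467 without untreated WT replicate 1.

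With the treatment Fcgr3 had intensities of 242.5, 344.1 and 267.7 in aly DCs, all below the untreated aly arrays. The difference of treated from untreated aly DCs was -1.19 ± 0.68 and was not called (adjusted p = 0.451); it was -1.79 within replicate 1 and -0.90 within replicates 2 and 3. Treated WT DCs had 537.9, 125.2 and 32.1, with the highest 16.8 times the lowest, against 242.3, 52.3 and 56.2 in untreated WT DCs. The difference in WT was 0.52 ± 0.68 (adjusted p = 0.741), 1.10 within replicate 1 and 0.23 within replicates 2 and 3, and turned to -0.40 without treated WT replicate 1. The 0.23 is the mean of 1.05 in replicate 2 and -0.59 in replicate 3. Between treated aly and treated WT DCs it was 0.94 ± 0.68 (adjusted p = 0.432), with the opposite sign within replicate 1 (-1.10) to that within replicates 2 and 3 (1.96).

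**Figure D2:**
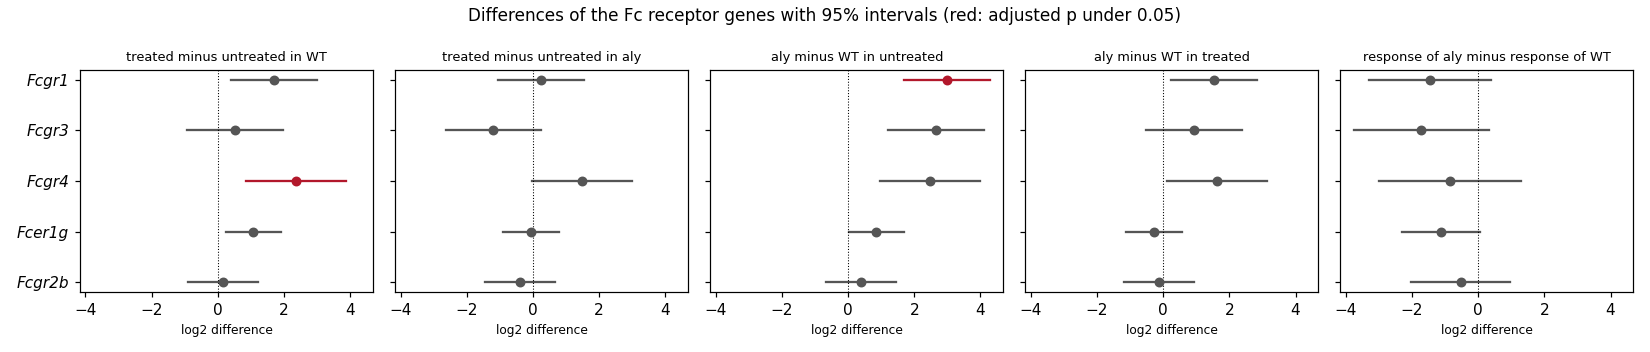
Differences (log2) of the 5 genes in each comparison, with points at the fitted difference and bars for the 95% intervals; red marks an adjusted p under 0.05. Fcgr1 in untreated aly against untreated WT DCs (2.99) and Fcgr4 upon treatment in WT DCs (2.35) are the differences marked.

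Fcer1g, the adaptor gene, had the least spread among the genes within treated WT DCs, where its highest array was 1.29 times its lowest. Its intensities were 2004.5, 1761 and 1550.4 in treated WT DCs, against 850.4, 1302.1 and 519 in untreated WT DCs, with no overlap. The difference was 1.07 ± 0.39 (95% interval 0.23 to 1.90), and it was not called (adjusted p = 0.103; 0.0456 without treated aly replicate 1). Treated aly DCs had 1816.8, 1331.7 and 1270, within the range of 1103.9 to 2124.7 of untreated aly DCs, with a difference of -0.06 ± 0.39 (adjusted p = 0.963, 95% interval -0.89 to 0.78). Between the genotypes it was 0.85 ± 0.39 without treatment (adjusted p = 0.467) and -0.27 ± 0.39 after treatment (adjusted p = 0.709). Within replicate 1 and within replicates 2 and 3, Fcer1g differed by 1.22 and 0.99 for treatment in WT, -0.22 and 0.026 for treatment in aly, 1.30 and 0.62 for aly minus WT without treatment and -0.14 and -0.34 after it. The 0.026 is the mean of 0.27 in replicate 2 and -0.22 in replicate 3, and the 0.62 that of -0.24 and 1.48.

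Fcgr2b, the inhibitory receptor gene, overlapped between the groups in every comparison. Its brightest probe set by mean log2 value read 310, 68.6 and 144.8 in treated aly, 268.1, 143.2 and 112 in treated WT, 142.7, 157.1 and 343.9 in untreated aly and 129.7, 115.4 and 208.9 in untreated WT DCs. The differences were 0.14 ± 0.50 for treatment in WT (adjusted p = 0.921), -0.39 ± 0.50 for treatment in aly (adjusted p = 0.758), 0.40 ± 0.50 for aly minus WT without treatment (adjusted p = 0.826) and -0.13 ± 0.50 after it (adjusted p = 0.899). The treatment differences ran in opposite directions between the replicates. In aly DCs the difference was 1.04 within replicate 1 and -1.10 within replicates 2 and 3, and in WT DCs it was 0.96 and -0.27. The -0.27 is the mean of 0.28 in replicate 2 and -0.81 in replicate 3, so in WT only replicate 3 was below 0. The values over all arrays thus average changes of opposite sign. The 1.04 rests on treated aly replicate 1, the array that stood apart. Aly minus WT was 0.12 within replicate 1 and 0.54 within replicates 2 and 3 without treatment, and 0.20 and -0.29 after it. The -0.29 is the mean of -0.91 in replicate 2 and 0.33 in replicate 3. Over all arrays the 95% interval ran from -0.92 to 1.20 for treatment in WT. For aly minus WT without treatment it ran from -0.66 to 1.46. Shifts within these bounds fit the values, and the bounds are no limit of what could be called with 3 arrays per group.

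The probe sets of Fcgr2b did not all run together. The probe set used correlated at r = 0.175, 0.364 and 0.198 with the other 3 that passed the filter, whereas those 3 correlated at 0.743 to 0.800 among themselves (12 arrays, as a description). On treated aly replicate 1, the array that stood apart, the probe set used read the highest value of its group (310). The other 3 read the lowest of theirs there (45.4, 3.1 and 9.2). These correlations were not computed without that array. In treated aly minus treated WT DCs, 2 of those 3 read -1.17 ± 0.60 and -1.05 ± 0.48 (log2, SE), and the third -0.10 ± 0.59. Adjusted p over all probe sets was 0.273, 0.226 and 0.938 in limma. The third read -0.64 ± 0.59 for treatment in WT, where the probe set used read 0.14. The fifth probe set had intensities of 0.6 to 7.1 and did not pass the filter. Fcgr2b and Fcgr3 have closely similar sequences in their extracellular parts, and how far the probes tell them apart was not tested.

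**Figure D3:**
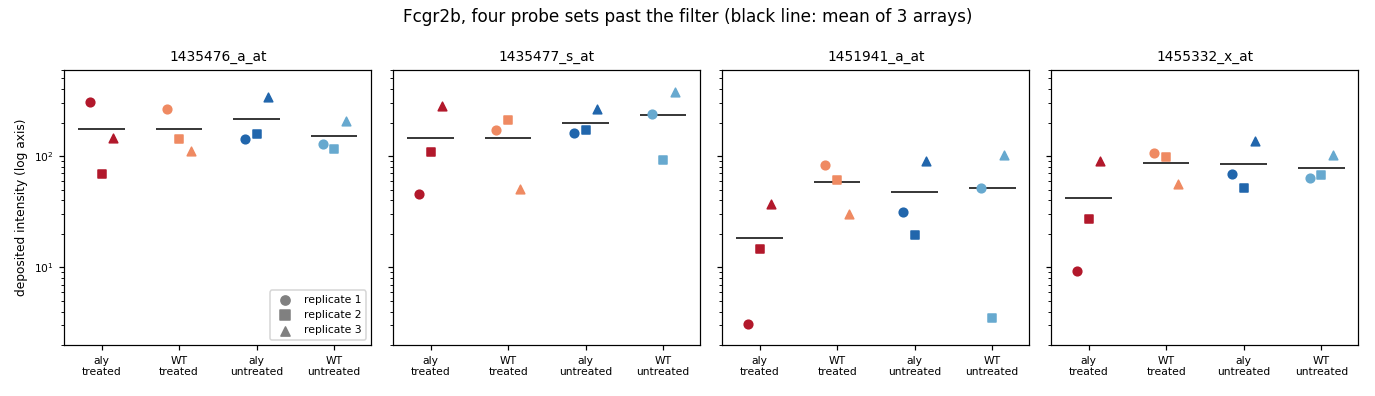
Deposited intensity (log axis) of the 4 Fcgr2b probe sets past the filter on the 12 arrays, with 1 point per array, a marker shape per replicate number and a black line at the mean of 3 arrays. The groups overlap, and the probe set used for the gene does not follow the order of arrays seen in the other 3.

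The responses of the genotypes to the treatment were compared by the interaction term. It was -1.46 ± 0.86 for Fcgr1 (adjusted p = 0.711), -1.71 ± 0.97 for Fcgr3 (adjusted p = 0.703), -0.85 ± 1.01 for Fcgr4 (adjusted p = 0.870), -1.13 ± 0.56 for Fcer1g (adjusted p = 0.640) and -0.53 ± 0.71 for Fcgr2b (adjusted p = 0.891). In limma 0 of the 5 were called, against 0.153% of all genes, and 0 were under an unadjusted 0.05, against 1204 of all 15019 genes. Within replicate 1 and within replicates 2 and 3 the term was -1.57 and -1.40 for Fcgr1, -2.89 and -1.13 for Fcgr3, -0.22 and -1.17 for Fcgr4, -1.45 and -0.96 for Fcer1g, and 0.075 and -0.83 for Fcgr2b. The value for Fcgr4 was 0.045 without treated WT replicate 1.

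The balance of activating to inhibitory receptor transcripts was described within each array as log2(intensity + 16) of the activating gene minus that of Fcgr2b; its zero has no meaning between probe sets, and only differences between groups can be read. For Fcgr1 it was 2.18 ± 1.13 in treated aly, 0.52 ± 0.83 in treated WT, 1.56 ± 0.32 in untreated aly and -1.04 ± 1.00 in untreated WT DCs (SD, n = 3 each). For Fcgr4 it was 4.24 ± 1.09, 2.49 ± 0.99, 2.36 ± 0.34 and 0.29 ± 0.85 in the same groups. The lowest untreated aly array lay above the highest untreated WT array for Fcgr1 (1.32 against 0.11), Fcgr3 (0.92 against 0.83) and Fcgr4 (1.97 against 1.21). These differences rest on the single Fcgr2b probe set used.

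**Figure D4:**
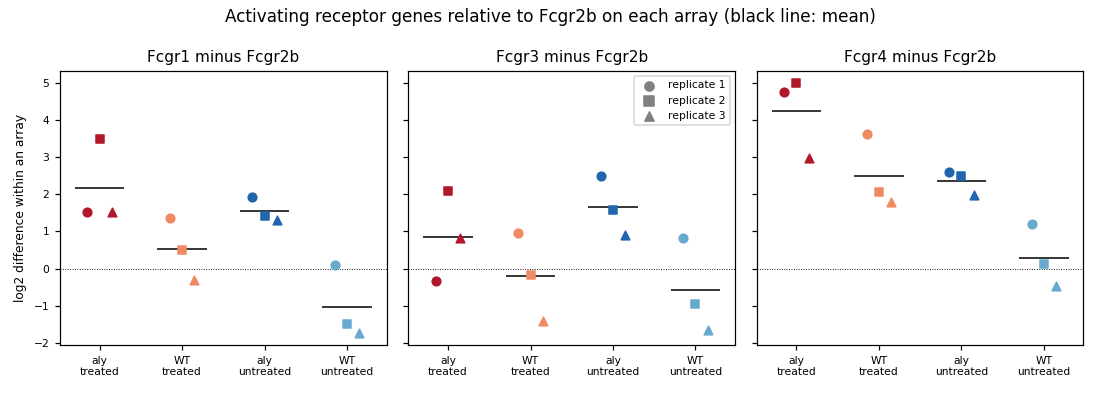
Difference of log2 values within an array between each activating receptor gene and Fcgr2b, by group, with 1 point per array and a black line at the mean of 3 arrays. For Fcgr1, Fcgr3 and Fcgr4 the untreated aly arrays lie above the untreated WT arrays, by 0.92 against 0.83 for the closest pair of Fcgr3.

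The red pulp macrophage markers and the activating receptor genes were high on the same arrays in WT but not throughout in aly DCs. In both WT groups the array with the highest marker sum, replicate 1, also had the highest Fcgr1, Fcgr3 and Fcgr4, and every aly array had a higher marker sum than every WT array. Treated aly replicate 1 had the highest sum of all arrays (93705) and the highest Fcgr4 (8700.6), but the lowest Fcgr3 of its group (242.5), below that of treated WT replicate 1 (537.9). Untreated aly replicate 3 had the highest sum of its group (79067) and its highest Fcgr1 and Fcgr4, whereas Fcgr3 was highest on untreated aly replicate 1. Treated and untreated WT replicate 1 had close marker sums, 22820 and 19428, with Fcgr1 at 712.1 and 141.1 and Fcgr4 at 3502.2 and 320.7. On WT replicate 2 the sums were 5004 with and 4021 without treatment, with Fcgr4 at 647.9 and 127.3. Of the markers, Spic (a transcription factor of red pulp macrophages) rose by 2.52 ± 0.54 with treatment in WT DCs (adjusted p = 0.0079) and the scavenger receptor gene Marco by 3.47 ± 0.98 (adjusted p = 0.0350), while the haemoglobin scavenger receptor gene Cd163 fell by 2.21 (SE 0.68, adjusted p = 0.0499). In bulk RNA, fewer cells of a type and less RNA per cell cannot be told apart, and the part of the macrophage transcripts in the Fc receptor values was not tested.

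Markers of other cells were also summed. Monocyte markers, 11 of them, summed to 18751 to 27557 in treated aly, 8077 to 15772 in treated WT, 21952 to 36662 in untreated aly and 18383 to 23503 in untreated WT DCs. In untreated aly against untreated WT DCs 0 of the 11 were called in limma, against 0.553% of all genes. There 3 were under an unadjusted 0.05, against 1570 of all 15019 genes. In treated aly against treated WT DCs 1 of the 11 was called, against 5.37% of all genes. It was Csf1r, the gene of a growth factor receptor of monocytes and macrophages, with 11174 ± 2519 and 2727 ± 2000 (SD, n = 3 each; adjusted p = 0.0298). The 6 erythroid markers summed to 565 to 3060 in treated aly, 83.5 to 382 in treated WT, 839 to 2088 in untreated aly and 55.2 to 239 in untreated WT DCs. They did not overlap between the genotypes, and replicate 1 was the highest in both WT groups. Slc4a1, the gene of the red cell anion exchanger, was the 1 called, with 840 ± 383 in untreated aly and 22.3 ± 32.3 in untreated WT DCs (adjusted p = 0.0182), and 987 ± 703 in treated aly and 42.2 ± 42.5 in treated WT DCs (adjusted p = 0.0058). Of all genes 0.553% were called without and 5.37% with treatment. The 10 neutrophil markers summed to 15438 on treated aly replicate 1, against 206 to 3422 on the other arrays. B cell markers summed to 2744 or less and natural killer cell markers to 4743 or less on every array. The natural killer cell sums were 1470 to 1992.5 in untreated aly and 2571 to 3688 in untreated WT DCs, with no overlap. Of these 10 markers 0 were called there, against 0.553% of all genes. With treatment their sums overlapped between the genotypes. Plasmacytoid DC markers summed to 3897.5 or less and mast cell or basophil markers to 2227 or less on every array. Their part in the Fc receptor values was not tested.

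**Figure D5:**
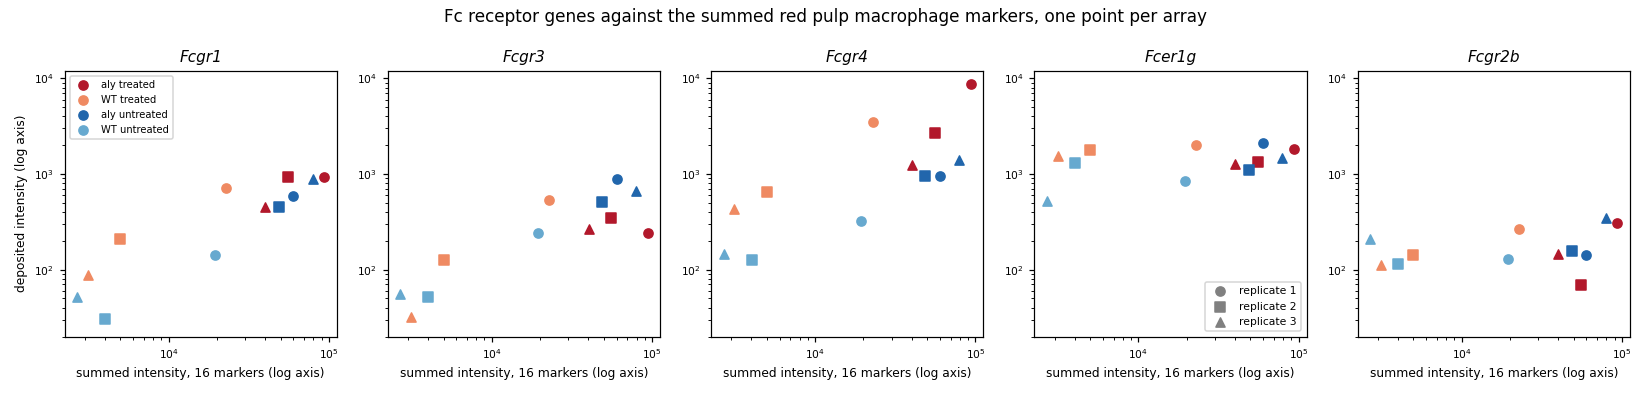
Deposited intensity of each Fc receptor gene (log axis) against the summed intensity of the 16 red pulp macrophage markers (log axis), with 1 point per array, coloured by group. The aly arrays lie at sums of 40186 and above, and in WT replicate 1 lies at 22820 (treated) and 19428 (untreated), above the other WT arrays.

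Genes of the interferon gamma pathway, which is known to act on Fcgr1, moved with the treatment in WT DCs. Of 22 measured genes of the list 14 rose and 1 fell, against 9.71% of all genes called. Their median was 2.31 (log2), against -0.12 over all genes. Gbp2, a guanylate-binding protein gene, had 11977 ± 548 in treated WT and 217 ± 10.4 in untreated WT DCs (SD, n = 3 each; adjusted p = 4.5e-07), and the chemokine gene Cxcl10 had 6930 ± 1247 and 118 ± 48.5 (adjusted p = 4.8e-06). In treated aly against treated WT DCs 10 of the 22 were lower and 0 higher, against 5.37% of all genes called. The median was -1.49, against 0.19 over all genes. There Cd274, the gene of PD-L1, had 432 ± 169 in aly and 3881 ± 948 in WT DCs (adjusted p = 0.00049). Over the same comparison the differences of Fcgr1 and Fcgr4 were above 0 (1.53 and 1.62) and not called. In untreated aly against untreated WT DCs, where Fcgr1 was called, 0 of the 22 were called in limma, against 0.553% of all genes. There 7 were under an unadjusted 0.05, against 1570 of all 15019 genes, and the median was 0.17, against 0.10 over all genes. Of the 4 with the smallest p, Iigp1 (2.61 ± 0.62), Gbp6 (1.73 ± 0.54) and Gbp2 (1.32 ± 0.39) were higher and Cd274 (-1.53 ± 0.37) was lower.

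Of 9 other Fc receptor genes measured, 0 rose and 2 fell with treatment in WT DCs, against 9.71% of all genes called, and 1 was higher and 1 lower in treated aly than in treated WT DCs, against 5.37%. Fcgrt, the gene of the neonatal Fc receptor that recycles IgG, had 2491 ± 1583 in treated aly and 382 ± 188 in treated WT DCs (adjusted p = 0.0082), and 4498 ± 419 in untreated aly and 1158 ± 420 in untreated WT DCs. The groups did not overlap without treatment either, with a difference of 2.01 ± 0.49 (adjusted p = 0.0901). Trim21, the gene of the cytosolic antibody receptor, had 435 ± 310 in treated aly and 1676 ± 350 in treated WT DCs (adjusted p = 0.0257). In untreated aly against untreated WT DCs 0 of the 9 were called in limma, against 0.553% of all genes. There 1 was under an unadjusted 0.05, against 1570 of all 15019 genes.

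Of 18 measured ITAM adaptors and receptors that pair with them, a group that holds other partners of Fcer1g, 0 were called in any of the 5 comparisons in limma. Of all genes 0.153% to 9.71% were called in these comparisons. Of the 18, 1 to 5 were under an unadjusted 0.05, against 1204 to 3465 of all 15019 genes. Of 15 ITIM receptors, Pilra was the 1 called in untreated aly against untreated WT DCs, against 0.553% of all genes. It had 641 ± 141 and 53.1 ± 28.4 (SD, n = 3 each; adjusted p = 0.0182). In treated aly against treated WT DCs 3 were higher and 2 lower, against 5.37% of all genes called. The higher ones included Siglece, with 186 ± 110 in aly and 14.5 ± 21.5 in WT DCs (adjusted p = 0.0117), and Pilra, with 328 ± 173 and 56.6 ± 26.3 (adjusted p = 0.0169). The lower ones were Siglecg and Pirb, the gene of an inhibitory receptor for class I MHC, and Pirb had 886 ± 422 in treated aly and 2449 ± 524 in treated WT DCs (adjusted p = 0.0369).

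Genes that act after Fc receptor engagement were called in WT DCs upon treatment. Of 32 in the activating branch 4 rose and 2 fell, against 9.71% of all genes called, among them Fyn, a Src family kinase gene, with 2073 ± 118 in treated WT and 546 ± 127 in untreated WT DCs (adjusted p = 0.0024). Of 19 in the inhibitory branch 3 rose and 1 fell, among them Cblb, a ubiquitin ligase gene, with 1427 ± 540 and 318 ± 129 in the same groups (adjusted p = 0.0061). In aly DCs 0 of 32 and 0 of 19 were called upon treatment in limma, where only 0.486% of all genes were called. There 5 of each branch were under an unadjusted 0.05, against 1935 of all 15019 genes. In treated aly against treated WT DCs 1 of the 32 was higher (Lat) and 2 were lower (Prkcd and Bcl10), against 5.37% of all genes called. Prkcd, a protein kinase C gene, was at 567 ± 411 in aly and 1999 ± 301 in WT DCs (adjusted p = 0.0199).

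The genes whose log2 values ran closest to each Fc receptor gene over the 12 arrays were named by the highest Pearson r, as a description without a test, since the arrays share their groups. For Fcgr1 these were Ctsl (0.968), Mertk (0.955) and Cttn (0.954), of which Mertk is on the macrophage marker list. For Fcgr4 they were Notch1 (0.977), Cebpb (0.977) and Marco (0.965), the last also a macrophage marker. For Fcgr3 they were Synpo (0.965), Cela1 (0.953) and Timp2 (0.946). For Fcer1g they were Mybl2 (0.918), Mau2 (0.895) and Ptov1 (0.892), and for Fcgr2b AY074887 (0.903), Fam20c (0.903) and Gm38396 (0.883). Of these 15 genes, 9 were also among the closest 3 without treated aly replicate 1. Mertk and Marco were not, though their r there was still 0.955 with Fcgr1 and 0.953 with Fcgr4.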

How the data were processed

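The deposited values are intensities of Affymetrix mouse arrays on a linear scale, 1 per probe set and array. The 2% trimmed mean was 150.001 on every deposited array, as scaling to a common target gives; which software made them, and how it treated background, is not given in the sources used here. RNA was amplified in more than 1 round before labelling, per the labels' protocols. The platform annotation gave 34958 probe sets a single symbol, 932 more than 1 and 9211 none, and names come only from those with a single symbol.

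Values were used as log2(intensity + 16). Groups were compared in limma 3.58.1 (R 4.3.3) with 1 mean per group over all 12 arrays, 8 residual degrees of freedom and prior degrees of freedom of 8.04, over 5 comparisons; the fit was tested on simulated data. Named were all members, up to 4 genes per list with the smallest p, and the 3 genes most like each member. The members and the lists (6 pathway, 11 cell type) were chosen with earlier results of these data known. Samples of the same replicate number correlated by -0.03 to 0.30 (median 0.09) in their deviations from the group means. Those of different numbers correlated by -0.29 to 0.23 (median -0.07). The labels do not state what the numbers share, and the main fit did not take them as pairs. Fits with a block for them are given below. The number of arrays limits the precision.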

Additional observations from a re-analysis of the deposited data

How the results depend on the processing

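Of 545 values of single Fc receptor genes under the alternatives, 490 kept their direction and their side of the threshold, 22 lost and 19 gained a call, and 14 changed sign. For treatment in WT DCs, 1 Fc receptor gene was called; the count was 0 with an offset of 1, without the filter, with median centring or with all probe sets as rows, 2 (Fcgr1 and Fcgr4) with replicate 1 against replicates 2 and 3 as a block, and 0 to 2 when each array was left out in turn. For untreated aly against untreated WT DCs, 1 was called; the count was 0 with an offset of 1, without the filter or with median centring, 2 with the replicate block (Fcgr1 and Fcgr3), 3 (Fcgr1, Fcgr3 and Fcgr4) with the block of replicate 1 against the others, with replicates 2 and 3 alone or with only the groups compared, and 0 to 3 leaving out each array. For treated aly against treated WT DCs, 0 were called; the count was 3 with replicates 2 and 3 alone and 0 to 2 leaving out each array. It stayed 0 for treatment in aly and for the interaction under every alternative run.

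Some differences changed sign. With replicates 2 and 3 alone, treatment gave -0.27 for Fcgr2b in WT and 0.026 for Fcer1g in aly DCs. With the probe set of the highest linear mean, chosen after seeing the data, Fcgr2b read -0.64 for treatment in WT and -0.067 for untreated aly minus untreated WT. Leaving out each array, the treatment in WT gave -0.19 to 0.39 for Fcgr2b and -0.40 to 1.37 for Fcgr3, the treatment in aly gave -0.88 to 0.093 for Fcgr2b and -0.28 to 0.18 for Fcer1g, treated aly minus treated WT gave -0.62 to 0.35 for Fcgr2b, and the interaction gave -1.60 to 0.045 for Fcgr4. The cause of these changes was not tested. The numbers of all genes called ranged, over all alternatives, from 587 to 2895 for treatment in WT, 6 to 120 for treatment in aly, 0 to 396 for untreated and 27 to 1544 for treated aly against WT, and 1 to 113 for the interaction. The replicate block changed no other count of Fc receptor genes called.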
